A study of Mus musculus with 2 samples.

Results

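The 37 genes of the mouse mitochondrial genome were examined among 39695 gene entries in RNA-seq data from testes of mice at postnatal day 9 (P9). They are all entries whose Ensembl identifier GENCODE M21 places on the mitochondrial chromosome (chrM) of GRCm38, the assembly also called mm10. They comprise 13 mRNA genes, 2 ribosomal RNA (rRNA) genes and 22 transfer RNA (tRNA) genes. The data held 1 library from control testes and 1 from testes labelled Bcas2F/-;V-cre, called Bcas2F/-;Vasa-Cre here. According to the study's methods, males of both groups had a floxed allele of Bcas2 and a deleted one, and the mutants also carried Vasa-Cre, a transgene expressed in germ cells that recombines the floxed allele. Whole testes also hold somatic cells, which this transgene does not target. The labels name C57BL/6 as the strain and whole testes as the tissue, whereas by the methods the mice were of mixed background, C57BL/6 among the strains. The number of animals behind each library was not given in the sources used here. With 1 library per genotype, none of the differences below could be set against replicate error, and p-values are not given. Intervals cover counting error only.

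The mitochondrial genome is a small circular DNA that encodes subunits of the respiratory chain and of ATP synthase, together with the rRNAs and tRNAs that translate them inside the organelle. Both strands are transcribed as long precursors in which tRNAs lie between the other genes, and release of the tRNAs frees the mRNAs and rRNAs. The genes have no introns, so their RNAs are not substrates of the nuclear spliceosome to which BCAS2 belongs. Most of the mRNAs receive a poly(A) tail from a mitochondrial polymerase, and the proteins that transcribe, cut and stabilise these RNAs are encoded in the nucleus.

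Mitochondrial mRNAs were among the most abundant RNAs of both libraries and stood at nearly the same level in them. Of the 10 entries with the highest RPKM (reads scaled by gene length in kilobases and by library size), 7 were mitochondrial mRNAs in each library. Together the 13 mRNAs took 1053611 of 19918750 counted reads in control and 1000911 of 19331687 in Bcas2F/-;Vasa-Cre testes. These are 5.29% of the control reads (95% Clopper-Pearson interval 5.28 to 5.30%) and 5.18% of the Bcas2F/-;Vasa-Cre reads (5.17 to 5.19%). The summed reads, per library size, differed by a log2 ratio of −0.031 (−0.035 to −0.027), with Bcas2F/-;Vasa-Cre over control as in all ratios below. Of the 37 genes, 15 averaged at least 1 RPKM over both libraries, and 0 of these 15 differed by more than 1.5-fold. Over all 14831 genes that averaged at least 1 RPKM, 3.26% did, 1.69% being lower and 1.57% higher. Of the 12 mRNAs at this level, 8 were lower and 4 were higher in Bcas2F/-;Vasa-Cre testes, with a median log2 ratio of RPKM + 1 of −0.020. The corresponding share of lower genes was 46.3% over all genes, and their median log2 ratio was 0.015. The direction of the mRNAs' median depended on the scaling, since it was 0.0082, with 5 genes lower, after RPKM was rescaled to a sum of 1000000 in each library.

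The targeted gene was lower in the library labelled Bcas2F/-;V-cre. Bcas2 had 39.5 RPKM in control and 25.7 RPKM in Bcas2F/-;Vasa-Cre testes, a log2 ratio of RPKM + 1 of −0.60. The testis identity of both libraries was evident from germ cell markers such as Dazl and Sertoli cell markers such as Cldn11. Dazl had 165 RPKM in control and 125 RPKM in Bcas2F/-;Vasa-Cre testes, and Cldn11 had 232 and 234 RPKM. All 7 germ cell markers and all 5 meiotic prophase markers were lower in Bcas2F/-;Vasa-Cre testes, with median log2 ratios of −0.38 and −0.56. By replicated RT-PCR at P9, the paper reported similar mRNA levels of Ddx4 (Mvh), Dazl, Kit, Stra8 and Sohlh1 in both genotypes. It reported lower levels of the meiotic prophase genes it measured. The 5 Sertoli cell markers above 1 RPKM had a median of 0.11. The medians were 0.36 for 5 Leydig cell, 0.019 for 3 peritubular myoid cell, −0.062 for 3 endothelial cell and −0.19 for 3 macrophage markers. The Leydig cell markers were mixed, with 3 higher and 2 lower, and the most abundant, Hsd3b1, had a log2 ratio of −0.17. Of the myoid markers 2 were higher and 1 lower, and the most abundant, Acta2, had −0.13. Of the blood lists, the 6 red cell markers had a median of −0.32 with 5 of them lower. The most abundant of them, Hbb-bs, was higher (0.11), and their summed RPKM went from 980 in control to 944. The summed RPKM of 5 neutrophil markers went from 26.3 to 3.16. Whether these differences in cell markers play a part in the mitochondrial values was not tested. In whole testes, fewer cells of a type and less RNA per cell cannot be told apart.

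The mRNAs of complex IV, the cytochrome c oxidase that passes electrons to oxygen, had the highest levels per length. The level of mt-Co2, which encodes the subunit that accepts electrons from cytochrome c, was 10542 RPKM in control and 10616 RPKM in Bcas2F/-;Vasa-Cre testes, from 143631 and 140370 reads. The catalytic subunit gene mt-Co1 was at 9455 and 9368 RPKM. It supplied more reads than any other mitochondrial gene, 290969 in control and 279796 in Bcas2F/-;Vasa-Cre testes. The third gene of the complex, mt-Co3, was at 9515 and 9205 RPKM, a log2 ratio of RPKM + 1 of −0.048. In control the counting intervals of mt-Co3 and mt-Co1 overlapped, the only neighbours in the order of mRNA levels for which they did so in either library. The RPKM of mt-Co3 changed by −3.26% and that of the others by less, and together they made up 55.4% of the mitochondrial mRNA reads in control and 55.9% in Bcas2F/-;Vasa-Cre testes.

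**Figure D1:**
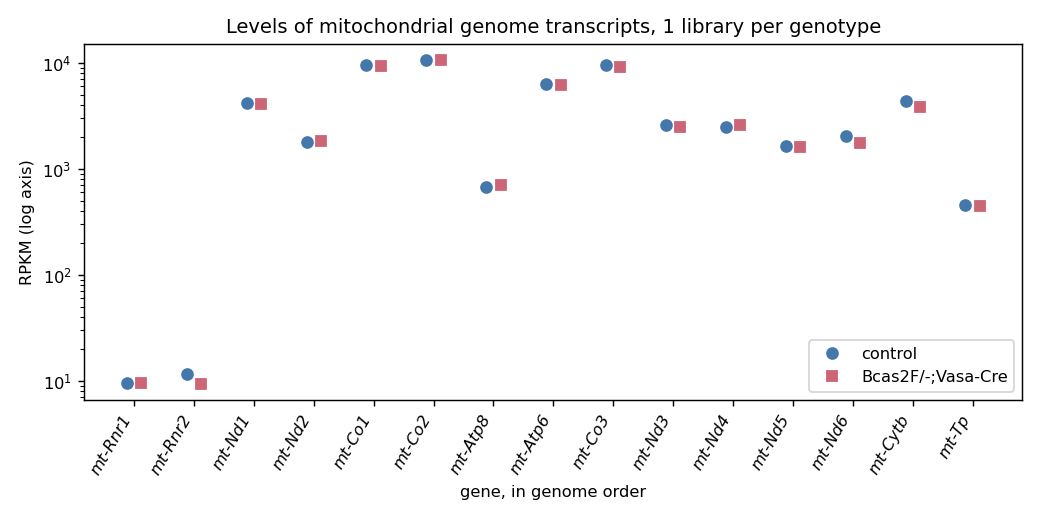
RPKM (log axis) of the 15 mitochondrial genes with more than 30 reads, in genome order, with circles for the control and squares for the Bcas2F/-;Vasa-Cre library (1 library each, no error bars). The symbols nearly coincide for most genes, and the levels run from 9.57 RPKM for mt-Rnr1 to 10542 RPKM for mt-Co2 in control.

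Complex V, the ATP synthase, has a pair of mitochondrial genes that lie on a shared mRNA and overlap. The level of mt-Atp6, the subunit of the proton channel, was 6260 RPKM in control and 6202 RPKM in Bcas2F/-;Vasa-Cre testes. Its neighbour mt-Atp8, a small membrane subunit, was listed at 679 and 709 RPKM, from 2759 and 2795 reads. Although the shared mRNA carries both, the RPKM of mt-Atp6 was 9.22 times that of mt-Atp8 in control and 8.75 times in Bcas2F/-;Vasa-Cre testes. Of the 204 bases of mt-Atp8, 43 also belong to mt-Atp6. How reads on such shared bases were counted is not given in the sources used here. The junction at chrM:7907-7989 (plus strand, GRCm38, GENCODE M21 transcripts) is shown to mark the bases that cannot be assigned to a single gene, which are in capitals.
mt-Atp8 end and mt-Atp6 start: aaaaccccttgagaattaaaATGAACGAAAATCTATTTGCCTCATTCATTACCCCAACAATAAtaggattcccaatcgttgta
The capitals open with the start codon of mt-Atp6 and close with the stop codon of mt-Atp8.

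Complex I, the NADH dehydrogenase, has 7 mitochondrial subunit genes, 6 of which had between 1612 and 4168 RPKM. The highest was mt-Nd1, at 4168 RPKM in control and 4091 RPKM in Bcas2F/-;Vasa-Cre testes. The level of mt-Nd2 was 1797 RPKM in control and 1813 RPKM in Bcas2F/-;Vasa-Cre testes, and that of mt-Nd3 was 2570 and 2483 RPKM. For mt-Nd5 the values were 1653 and 1612 RPKM. These 4 genes differed by log2 ratios of RPKM + 1 between −0.050 for mt-Nd3 and 0.012 for mt-Nd2. The mRNA of mt-Nd4 was at 2503 RPKM in control and 2587 RPKM in Bcas2F/-;Vasa-Cre testes, a log2 ratio of 0.047 whose counting interval, on reads, ran from 0.032 to 0.063. After mt-Atp8, at 0.062 (on reads −0.015 to 0.14), it was the highest ratio among the mitochondrial mRNAs.

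The remaining complex I genes were mt-Nd6 and mt-Nd4l. Only mt-Nd6 among the 13 mRNA genes is encoded on the minus strand, at chrM:13552-14070 (ENSMUSG00000064368). Its level was 2026 RPKM in control and 1750 RPKM in Bcas2F/-;Vasa-Cre testes, from 20949 and 17560 reads. The log2 ratio on reads was −0.21 (−0.24 to −0.18), the lowest of the mRNAs with more than 1 read. The sense sequence of mt-Nd6 had 28.1% G and 5.97% C, whereas each of the other 12 mRNAs had more C than G. It shares 14 bases with the end of mt-Nd5 on the opposite strand. The library kit named in the labels does not mark strand, so reads of mt-Nd6 and reads of RNA from the opposite strand cannot be told apart. Its level was 1.13 times that of mt-Nd2 in control, and it was below mt-Nd2 in Bcas2F/-;Vasa-Cre testes.

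Complex III, which passes electrons from ubiquinol to cytochrome c, has mt-Cytb as its sole mitochondrial gene, at chrM:14145-15288 on the plus strand (ENSMUSG00000064370). Cytochrome b had an mRNA level of 4327 RPKM in control and 3829 RPKM in Bcas2F/-;Vasa-Cre testes, from 98601 and 84691 reads. The log2 ratio on reads was −0.18 (−0.19 to −0.16). The gene lies next to mt-Nd6 in the annotation, with only the tRNA gene mt-Te between them. Both were further from 0 than the SD of 0.15 over the 1129 other genes averaging at least 100 RPKM, whereas the other 10 mRNAs with more than 1 read were not. The median of those 1129 genes was −0.026, so the distance from 0 overstates how far mt-Nd6 and mt-Cytb stood from them. Among all 1142 genes at that level, mt-Nd6 ranked 115 and mt-Cytb 168 from the lowest ratio. The other mRNAs at that level ranked between 497 and 848. At that level 57.7% of all genes were lower in Bcas2F/-;Vasa-Cre testes and 0.613% differed by more than 1.5-fold. A ratio as low as that of mt-Nd6 was thus found in 10.1% of the abundant RNAs of these libraries.

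**Figure D2:**
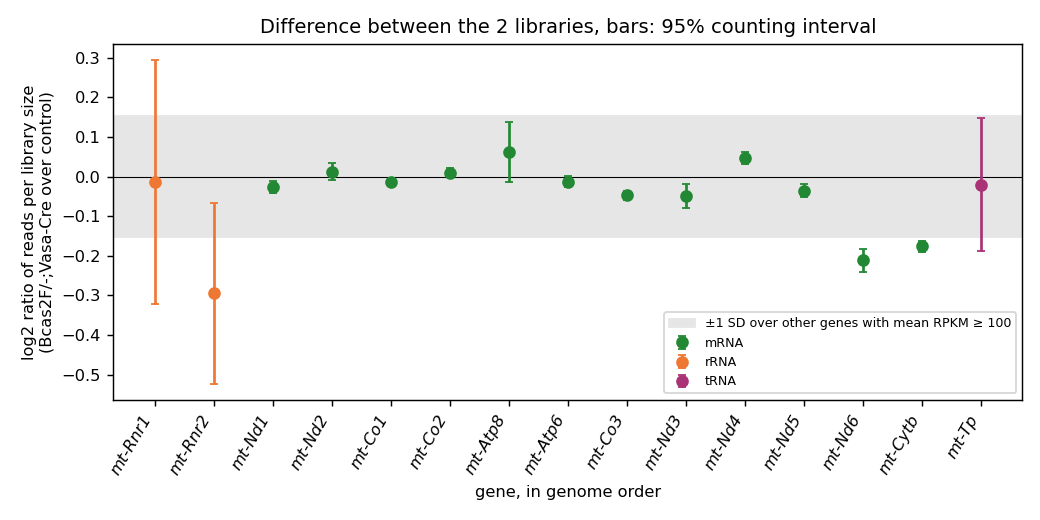
Log2 ratio of reads per library size, Bcas2F/-;Vasa-Cre over control, for the 15 mitochondrial genes with more than 30 reads, in genome order; bars are 95% Clopper-Pearson intervals (counting error only), and the grey band is ±1 SD (0.15) over the other genes averaging at least 100 RPKM. The band is centred on 0, whereas the median of those other genes was −0.026. Of the mRNAs, mt-Nd6 and mt-Cytb lie below the band, and the wide intervals of the rRNAs and mt-Tp go with their few reads.

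The shares of single genes among the mitochondrial mRNA reads do not depend on how the libraries were scaled. By this measure mt-Cytb went from 9.36% (9.30 to 9.41%) in control to 8.46% (8.41 to 8.52%) in Bcas2F/-;Vasa-Cre testes. The share of mt-Nd6 went from 1.99% to 1.75%. The share of mt-Nd4 was 6.52% in control and 6.89% in Bcas2F/-;Vasa-Cre testes, that of mt-Co2 was 13.6% and 14.0%, and that of mt-Co1 was 27.6% and 28.0%. By complex, the 7 genes of complex I together made up 27.0% and 27.2%, and complex V made up 8.32% and 8.44%. Without mt-Nd6 and mt-Cytb, an exclusion chosen after seeing the values, the other 11 mRNAs had a log2 ratio of summed reads of −0.013 (−0.017 to −0.0084).

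**Figure D3:**
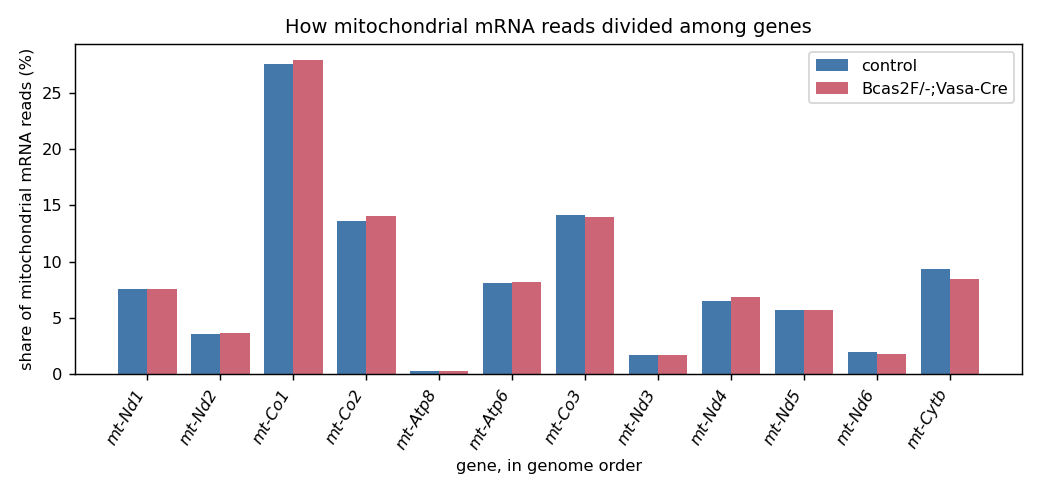
Share of the mitochondrial mRNA reads (%) taken by each of the 12 mRNAs with more than 30 reads, in genome order, with 1 bar for the control and 1 for the Bcas2F/-;Vasa-Cre library. The division was nearly the same in both, with mt-Co1 at 27.6% and 28.0% and mt-Cytb at 9.36% and 8.46%.

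The order of levels was similar in both libraries, with mt-Co2 the highest and mt-Nd5, mt-Atp8 and mt-Nd4l the lowest mRNAs. Neighbours in this order changed places between the libraries in 4 cases, namely mt-Co3 and mt-Co1, mt-Cytb and mt-Nd1, mt-Nd3 and mt-Nd4, and mt-Nd6 and mt-Nd2. From mt-Co2 to mt-Nd5 the RPKM fell 6.38-fold in control and 6.58-fold in Bcas2F/-;Vasa-Cre testes, although 12 of the 13 mRNA genes are encoded on the same strand.

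The gene mt-Nd4l, which encodes another small subunit of complex I, stood apart with 1 read in control and 0 reads in Bcas2F/-;Vasa-Cre testes. No ratio is given for it, since both counts were under 3 reads. It lies at chrM:9877-10173 on the plus strand (ENSMUSG00000065947) and shares 7 bases with mt-Nd4, the gene carried on the same mRNA, which had 68715 and 68922 reads. The nuclear pseudogene Gm10222, at chr1:24612407-24612700 (GRCm38, minus strand), was identical to 294 of the 297 bases of mt-Nd4l. It was listed at 27.2 RPKM in control and 23.5 RPKM in Bcas2F/-;Vasa-Cre testes. At the length of mt-Nd4l these values were 161 and 135 whole reads, a log2 ratio on reads of −0.21 (−0.55 to 0.13). Reads matching both genes equally cannot be assigned from the sequence, so the values of mt-Nd4l and Gm10222 are uncertain. The sequence of mt-Nd4l is given to show the extent of this match, with only the 3 bases outside it, the stop codon, in capitals.
mt-Nd4l: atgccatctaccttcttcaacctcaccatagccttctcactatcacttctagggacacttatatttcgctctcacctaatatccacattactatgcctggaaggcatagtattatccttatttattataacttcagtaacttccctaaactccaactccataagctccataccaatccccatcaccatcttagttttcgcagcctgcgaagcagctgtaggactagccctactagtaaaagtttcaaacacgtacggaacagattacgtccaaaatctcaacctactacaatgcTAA

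Nuclear copies of other mitochondrial mRNA genes were searched among the annotated pseudogenes, at 95% identity or more over at least 80% of the copy. Including Gm10222, 11 copies were found, of which 5 had values and 6 had no entry in the data. All 6 of these lie beside Gm10222 on chromosome 1 and match mt-Nd4, mt-Nd3, mt-Co3, mt-Atp6, mt-Co2 and mt-Co1. Their identity over the matched bases was 99.7 to 100%. Reads matching such a copy and its mitochondrial gene equally cannot be assigned from the sequence. The values of these mitochondrial genes therefore also carry an uncertainty over the matched bases, the size of which was not tested. In control they were listed with 17815 (mt-Nd3) to 290969 (mt-Co1) reads, against 1 read for mt-Nd4l. Of the other 4 copies with values, Gm13341, a copy of mt-Co2 with 95.9% identity, had 23 reads in control and 9 in Bcas2F/-;Vasa-Cre testes. The mt-Co1 copy Gm13340 had 8 and 17 reads, the mt-Nd2 copy Gm13339 had 1 and 0, and the mt-Nd5 copy Gm4076 was listed at 0 in both libraries. The counts of these 4 copies were small beside those of the matching mitochondrial genes, and the 6 copies without an entry had no counts to compare.

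Both rRNAs were present at far lower RPKM than the mRNAs other than mt-Nd4l. The small-subunit rRNA mt-Rnr1 had 9.57 RPKM in control and 9.48 RPKM in Bcas2F/-;Vasa-Cre testes, from 182 and 175 reads. Its log2 ratio on reads was −0.013 (−0.32 to 0.29). For the large-subunit rRNA mt-Rnr2, the values were 11.6 and 9.42 RPKM from 364 and 288 reads. Its log2 ratio on reads was −0.29 (−0.52 to −0.068), and with 1 added to each RPKM it was −0.27. Over all 14831 genes the SD of the log2 ratios was 0.26. Both rRNAs together took 0.00274% of the reads in control and 0.00240% in Bcas2F/-;Vasa-Cre testes. In the genome mt-Nd1 follows mt-Rnr2 with only the tRNA gene mt-Tl1 between them, yet its RPKM was 361 times that of mt-Rnr2 in control and 434 times in Bcas2F/-;Vasa-Cre testes. According to the paper the libraries were made from mRNA. RPKM of rRNA in such libraries is not the level of rRNA in the tissue.

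The tRNAs were listed at 0 in both libraries for 21 of the 22 genes. As every cell with mitochondria uses these tRNAs, the zeros are not read as their levels. The genes are 59 to 75 bases long, and 17 of them have another annotated gene within 3 bases on both sides. The exception was mt-Tp, which encodes the tRNA for proline at chrM:15356-15422 on the minus strand (ENSMUSG00000064372). It was listed at 452 RPKM in control and 445 RPKM in Bcas2F/-;Vasa-Cre testes, from 603 and 577 reads. On reads its log2 ratio was −0.020 (−0.19 to 0.15). Per length this was 39.1 times the RPKM of mt-Rnr2 in control and 47.3 times in Bcas2F/-;Vasa-Cre testes. No annotated gene follows mt-Tp, which borders the non-coding control region of the mitochondrial genome. The tRNA gene on its other side, mt-Tt, directly adjoins it. Whether the reads came from the tRNA or from longer RNAs that run into the control region was not tested, and the strand of the reads is unknown. Its sequence is printed as that of the only mitochondrial tRNA gene with reads.
mt-Tp: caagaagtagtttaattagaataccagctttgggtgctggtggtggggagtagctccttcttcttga

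The 3′ ends of the mRNA genes show how closely these genes are packed. A complete stop codon was found at the end of 10 of the 13 annotated mRNAs, TAA in 8 and TAG in 2. Those with TAG are mt-Nd1 and mt-Nd2, whose last 2 bases also belong to the tRNA gene that follows. Whether their mRNAs keep these 2 bases was not tested. In mt-Co3, mt-Nd4 and mt-Cytb only the T of a stop codon is encoded, and the poly(A) tail is known to complete it. The last 24 bases of these 3 genes are given beside those of mt-Co2, an example with a complete codon, with the encoded part of the stop codon in capitals.
mt-Co3: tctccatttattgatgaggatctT
mt-Nd4: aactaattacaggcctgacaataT
mt-Cytb: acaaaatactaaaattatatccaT
mt-Co2: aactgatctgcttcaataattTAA
The 3 genes annotated with only the T of a stop codon had log2 ratios of RPKM + 1 of −0.048, 0.047 and −0.18, and so shared no direction.

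The mitochondrial ratios were also set beside those of other genes above the same minimum RPKM. These groups share a minimum only and were not matched for level. Among the 39 genes averaging at least 1000 RPKM, 79.5% were lower in Bcas2F/-;Vasa-Cre testes. They included 11 mitochondrial mRNAs with a median log2 ratio of RPKM + 1 of −0.027, of which 8 were lower. The median of the 28 nuclear genes was −0.13, and 23 of them were lower. At 100 RPKM or more the medians were close, −0.020 for 13 mitochondrial genes, mt-Tp among them, and −0.026 for the 1129 others. At 1 RPKM or more they were −0.020 for 15 mitochondrial genes and 0.015 for the 14816 others. This comparison is a description of the 2 libraries, and genes are not replicates of a genotype.

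**Figure D4:**
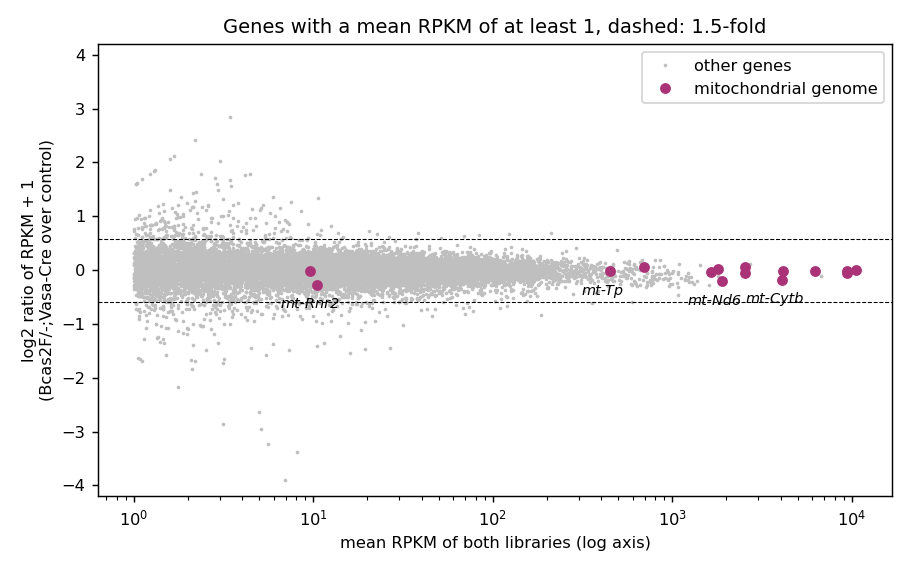
Log2 ratio of RPKM + 1, Bcas2F/-;Vasa-Cre over control, against mean RPKM (log axis) for the 14831 genes that averaged at least 1 RPKM, with the 15 mitochondrial genes as large points and dashed lines at 1.5-fold. All 15 lie between the dashed lines, from −0.27 for mt-Rnr2 to 0.062 for mt-Atp8.

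Nuclear genes that express and maintain the mitochondrial genome were then examined in 8 lists. In all, 195 genes of these lists averaged at least 1 RPKM, and 0 of them differed by more than 1.5-fold, against 3.26% of all genes. Their log2 ratios of RPKM + 1 had a median of −0.028, with 117 genes lower and 78 higher. The median of all genes was 0.015, and 46.3% of them were lower. These shares over all genes are not matched for abundance, as the list genes had a median level of 29.6 RPKM. Of the genes averaging at least 100 RPKM, 0.613% differed by more than 1.5-fold and 57.7% were lower.

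Of the 10 transcription genes, 5 were lower and 5 higher, with a median log2 ratio of 0.019. The lowest and highest of those averaging at least 5 RPKM were Mterf4, at 16.5 RPKM in control and 14.2 in Bcas2F/-;Vasa-Cre testes, and Mterf2, at 6.06 and 7.57. Both belong to the mitochondrial transcription termination factor family. In the replication list 6 of 11 genes were lower, with a median of −0.027. Its lowest was Top1mt, the mitochondrial topoisomerase, at 10.6 and 8.56 RPKM, and its highest Dna2, a nuclease and helicase also active in the nucleus, at 6.12 and 8.19 RPKM.

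Genes for RNA processing and modification had a median of −0.0028, with 16 lower and 15 higher. They ranged from Pus1, a pseudouridine synthase of tRNA (11.7 and 9.54 RPKM), to Trmu, which thiolates mitochondrial tRNAs (17.3 and 21.7 RPKM). The 15 genes of RNA stability and decay had a median of 0.027, with 5 lower and 10 higher. Lrpprc, whose protein binds and stabilises mitochondrial mRNAs, was the lowest of them at 64.7 RPKM in control and 54.0 in Bcas2F/-;Vasa-Cre testes, a log2 ratio of −0.26. The highest was Fastkd1, of the FASTK family of mitochondrial RNA-binding proteins, at 11.0 and 15.4 RPKM, a log2 ratio of 0.44.

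Translation inside mitochondria was covered by the other lists. Of the 76 mitochondrial ribosomal protein genes above 1 RPKM, 54 were lower and 22 higher, with a median log2 ratio of −0.068 and a range from −0.34 for Mrpl47 to 0.24 for Mrpl27. The share of lower genes was 46.3% over all genes and 57.7% over those averaging at least 100 RPKM. Neither share is matched to the median level of this list, 38.1 RPKM. Among the 22 genes for tRNA charging, 15 were lower, with a median of −0.031. The lowest was Kars, the lysyl-tRNA synthetase that also serves the cytosol, at 74.6 and 58.4 RPKM, and the highest Iars2, the mitochondrial isoleucyl-tRNA synthetase, at 32.3 and 36.4 RPKM. The 13 translation factors had a median of −0.013, from Mtfmt, which formylates the initiator tRNA (−0.19), to the release factor gene Mtrf1 (0.19). Finally, 18 genes that follow mitochondrial content, such as import receptors and matrix chaperones, had a median of −0.057. These ran from Chchd3, a cristae scaffold, at −0.26 to the import receptor Tomm70a at 0.17.

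**Figure D5:**
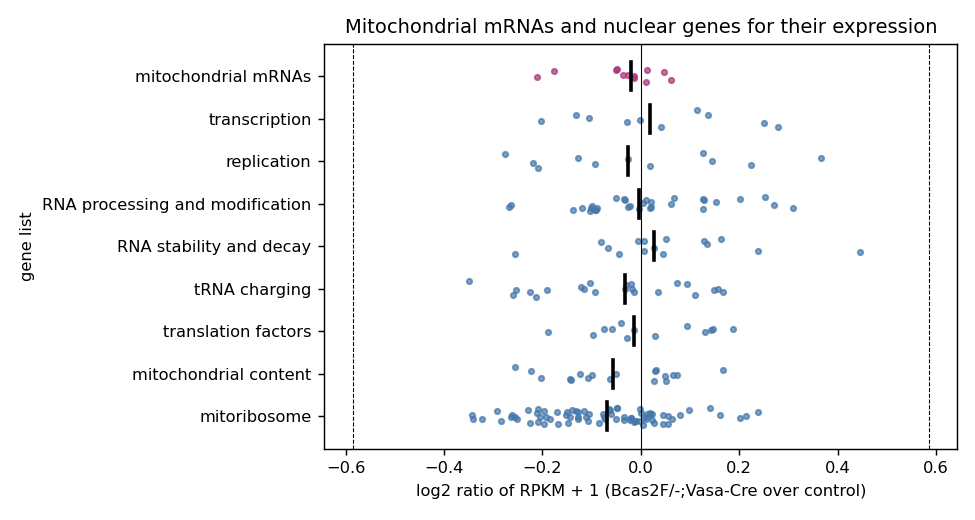
Log2 ratio of RPKM + 1, Bcas2F/-;Vasa-Cre over control, for the 12 mitochondrial mRNAs averaging at least 1 RPKM (top row) and for the genes of 8 nuclear lists at the same minimum; each point is a gene, black bars are medians and dashed lines mark 1.5-fold. All points lie between the dashed lines, and the medians run from −0.068 for the mitoribosome to 0.027 for RNA stability and decay.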

How the data were processed

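According to the study's methods, the authors removed adaptor and low-quality sequences, aligned paired-end reads from P9 testes with TopHat2 2.0.9 (build mm10 in the submitters' processing notes), used HTSeq to count the reads of each gene and deposited the result as RPKM. The annotation release, the gene lengths and the treatment of strand, shared bases and multiply matching reads are not given in the sources used here. Of 39695 entries, 37606 (94.7%) matched GENCODE M21 by identifier.

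Library sizes, 19918750 (control) and 19331687 (Bcas2F/-;Vasa-Cre), were recovered from the RPKM that 1 read is worth in single-transcript genes of known length, taking the most frequent size over genes. All 31 mitochondrial RPKM values above 0 were then whole reads at their GENCODE length within 2e-05 reads, as were about 77.3% of the values of single-transcript genes within 0.005. The recovery was tested on simulated data, which returned both sizes and every gene's reads. These data were simulated with the same gene lengths and formula that the recovery uses, so wrong or unknown lengths were not tested.

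Levels were compared as log2 ratios of RPKM + 1 for genes averaging at least 1 RPKM, which understates changes of low genes, and as reads with 95% Clopper-Pearson intervals (Poisson intervals for levels). Each group had 1 library, so no test was made. Named were all mRNAs and rRNAs, tRNAs with at least 30 reads, and the highest and lowest gene of each nuclear list at a mean RPKM of at least 5, plus nuclear copies found with BLAST+ 2.17.0 against the mitochondrial transcripts. Protein-coding symbols starting with Mrpl or Mrps made up the mitoribosome list. Members and lists were chosen with earlier results of these data known. Sequences are from GENCODE M21 transcripts. Computations used Python 3.11.15 with pandas 2.3.3, numpy 2.4.6 and scipy 1.17.1, and plots matplotlib 3.10.9. Splicing and isoforms were not analysed here.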

Additional observations from a re-analysis of the deposited data

How the results depend on the processing

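The count of 0 mitochondrial genes past 1.5-fold, the count of 0 nuclear list genes past 1.5-fold and the direction of Bcas2 were the same under pseudocounts of 0.1 and 0.01, no filter or a minimum mean RPKM of 5, centring of the log2 ratios on the median gene, RPKM summing to 1000000 per library, library sizes of nuclear genes only, and reads without a pseudocount. The median log2 ratio of the mRNAs was −0.027 without the filter, which adds mt-Nd4l, −0.035 after centring on the median gene, and 0.0082 with RPKM summing to 1000000, where 5 rather than 8 mRNAs were lower. The last 2 follow from the scaling itself. The median of the mRNAs, some list medians near 0 and single ratios such as those of mt-Co1, mt-Co2 and mt-Nd1 therefore have no settled direction. Under every one of these settings mt-Nd6, mt-Cytb, mt-Co3, mt-Nd3, mt-Nd5 and mt-Rnr2 were lower, and mt-Nd4 and mt-Atp8 were higher. Pseudocounts and filters cannot change the sign of a single gene's ratio, so only the changes of scaling bear on this. With RPKM summing to 1000000, mt-Nd3 and mt-Nd5 were at −0.022 and −0.0077. On reads, the counting interval of mt-Atp8 included 0 (−0.015 to 0.14). The directions of mt-Nd3, mt-Nd5 and mt-Atp8 are therefore not settled either. The medians of the mitoribosome and mitochondrial content lists were below 0 throughout. The medians of the rRNAs and tRNAs moved by less than their counting error. With the reads summed over listed genes as the denominator, an estimate from mean transcript lengths, the mRNAs took 5.73% of control and 5.63% of Bcas2F/-;Vasa-Cre reads, and the tRNAs 0.00328% and 0.00325%. As shares of summed RPKM, which does not weight genes by length, these were 8.68% and 8.65% for mRNAs, 0.00330% and 0.00301% for rRNAs, and 0.0707% and 0.0710% for tRNAs. Of 184 other recomputed single-gene ratios and list medians, 166 stayed within counting error and 18 moved beyond it. No paired analysis was possible because each genotype had 1 library. Depth limits the rRNAs and mt-Tp, whose intervals are wide, and not the abundant mRNAs, for which the spread between animals is unknown.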
